A study of Mus musculus with 9 samples.

Results

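Liver stromal cells of postnatal day 5 (P5) and postnatal day 10 (P10) were compared, a period in which blood formation passes from the liver to the bone marrow and the liver takes on its metabolic work. The comparison used the 6 postnatal arrays of a series of 9, with 3 arrays per stage, and covered 19938 genes, each represented by 1 probe set that names a single gene (where a gene had several, the probe set with the highest mean over the 9 arrays). Both stages came from C57BL/6 mice of the genotype Cxcl12DsRed/+, in which a red fluorescent reporter stands in 1 allele of Cxcl12. Cells were sorted from liver as negative for CD45 (a surface protein of white blood cells) and Ter119 (a surface protein of red blood cells) and positive for Cxcl12-DsRed. The remaining 3 arrays are of the same kind of cell at the embryonic stage E15.5, and entered the fit only for its estimate of spread and for the comparison of intervals given at the end. The labels call the arrays of a stage independent replicates and do not say whether animals were pooled, so p-values measure only the spread between these arrays.

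Cxcl12 encodes a chemokine that holds blood stem cells in their niche, and in liver it is made by mesenchymal stromal cells. The liver's mesenchyme includes hepatic stellate cells, which store vitamin A in the perisinusoidal space and become collagen-producing myofibroblasts in injury, portal fibroblasts around the bile ducts and portal vessels, and cells derived from the mesothelium that covers the liver. Around birth blood stem cells leave the liver for bone marrow, while hepatocytes switch from a fetal to an adult set of secreted proteins and enzymes.

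The labelled cell type was set beside marker genes, and all values are log2 signals, on which a difference of 1 is 2-fold. Cells were sorted for the Cxcl12 reporter and against CD45, so the levels of Cxcl12 and Ptprc were selected by the sort and are no independent check. Cxcl12 itself read 10.31, 9.95 and 10.24 on the P5 arrays and 10.31, 10.08 and 10.01 on the P10 arrays, and the groups overlapped (difference -0.04 ± 0.169 (SE), limma adjusted p = 0.951). Lrat, the enzyme that esterifies vitamin A for storage and a defining gene of stellate cells, read 8.50, 7.93 and 8.29 at P5 and 7.34, 7.86 and 7.97 at P10, above the median of all genes (6.83) on every array, and did not pass the test (-0.52 ± 0.215, adjusted p = 0.249). Ptprc, which encodes CD45, lay between 5.05 and 5.20 on the 6 arrays, under the value of 5.68 below which 30% of all signals fell. Hepatocyte transcripts, by contrast, were among the brightest in cells labelled as stroma: Alb, the gene of serum albumin, read 13.20, 13.20 and 13.22 at P5 and 13.21, 13.03 and 13.15 at P10, and 32 hepatocyte genes averaged 11.91, 11.85 and 11.94 at P5 and 11.93, 11.64 and 11.77 at P10. The source of the hepatocyte transcripts was not tested. In bulk samples of this kind, fewer cells of a type and less RNA per cell cannot be told apart.

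The P5 arrays differed among themselves in several marker groups, and the P10 arrays less so: pairs of P5 arrays correlated at 0.986 to 0.987 over all genes, pairs of P10 arrays at 0.992 to 0.995. Over 40 endothelial genes the mean signal was 6.59 on P5 array 1 against 7.48 and 7.75 on P5 arrays 2 and 3, and 34 of the 40 were higher on both of the latter than on array 1, as were 22.3% of all genes. The P10 arrays averaged 6.66, 6.71 and 7.10. P5 array 2 also stood apart in immune genes: 27 of 35 interferon response genes and 18 of 19 antigen presentation genes were higher there than on the other 5 postnatal arrays, as were 17.7% of all genes. E15.5 array 3, which enters the estimate of spread, carried both the Y-linked Eif2s3y (7.94) and Xist, an RNA of the inactive X chromosome (10.16). Whether it pooled animals was not tested. Of the postnatal arrays, P10 array 1 and P5 arrays 2 and 3 carried Y-linked signal, so that the arrays are not balanced for sex between the stages. Within P5 the arrays with more endothelial signal are those with Y-linked signal, so sex and cell content cannot be told apart there. Counts of genes in a list, or the list's median, are therefore also given without P5 arrays 2 and 3. That fit leaves P5 array 1 as the single array of its stage, so its spread comes only from the P10 and E15.5 arrays and the lone array is assumed to vary like them.

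**Figure D1:**
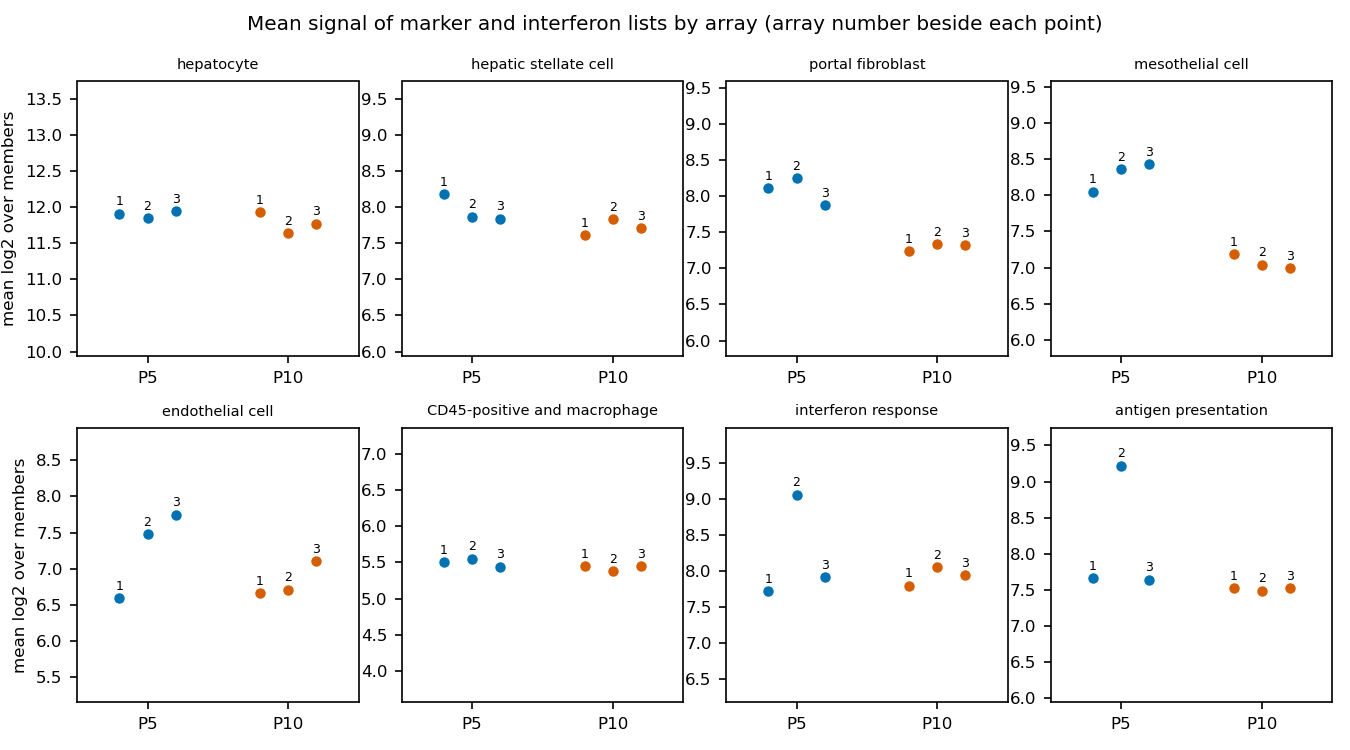
Mean log2 signal of marker gene lists on each postnatal array (P5 blue, P10 orange), 1 panel per list, each panel spanning the same range of log2 signal, with the array number beside each point. Endothelial genes are higher on P5 arrays 2 and 3 than on P5 array 1, antigen presentation genes are high on P5 array 2, and portal fibroblast and mesothelial genes are lower on all 3 P10 arrays than on any P5 array.

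Between P5 and P10, 550 genes rose (2.76% of the 19938 tested) and 576 fell (2.89%), together 5.65%, at an adjusted p under 0.05 in limma with Benjamini-Hochberg adjustment over all genes. In all 1126 of these the lowest array of one stage exceeded the highest of the other, a separation that 20.2% of all genes showed. The change reached 2-fold in 79 of the genes that rose and 162 of those that fell. On the arrays centred on the median of all genes 63.5% of the calls were higher at P10, against 48.8% as deposited; that centring moved the median difference over all genes from -0.00153 to 0.0625. The number that rose was 346 without P5 array 2, 355 without P10 array 1, 250 without P10 array 2 and 334 without P10 array 3, and the number that fell was 336 without P10 array 2. Without P5 arrays 2 and 3 together, 426 rose and 336 fell.

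**Figure D2:**
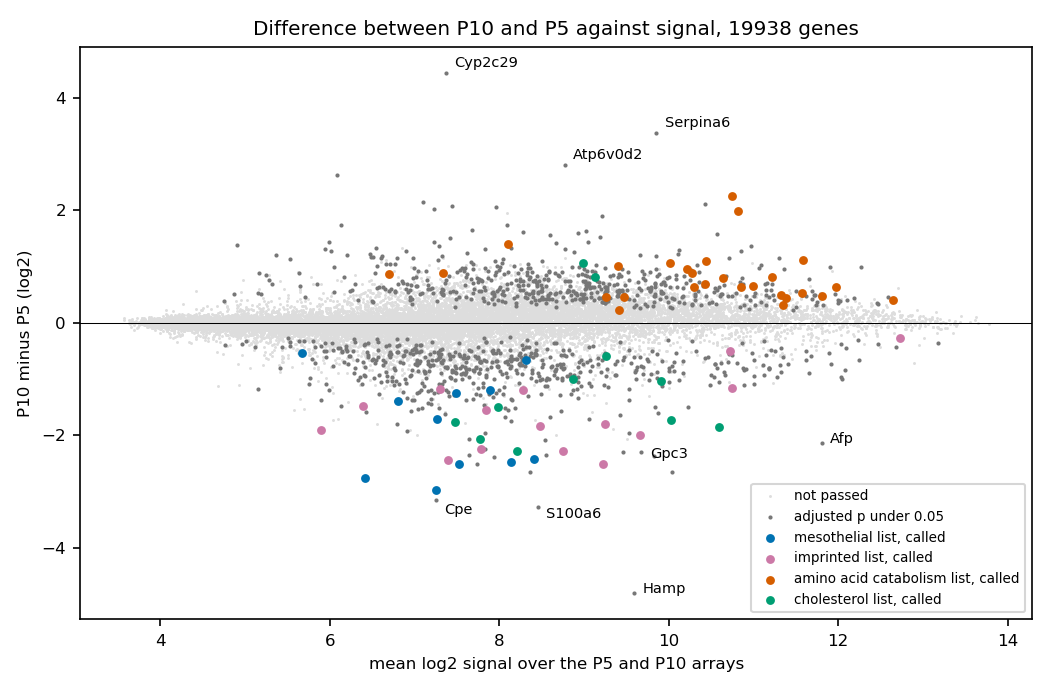
Difference in log2 signal between P10 and P5 (vertical axis) against mean log2 signal (horizontal axis) for 19938 genes, with genes that did not pass in light grey, called genes in dark grey or, for mesothelial, imprinted, amino acid catabolism and cholesterol lists, in colour. The fall of Hamp (-4.80) and the rise of Cyp2c29 (4.44) lie farthest from 0.

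Hepcidin, the hormone that limits iron release into blood, gave the largest fall of any gene named by the rule of this comparison. Its gene Hamp read 11.72, 12.23 and 12.02 on the P5 arrays and 5.73, 7.33 and 8.49 on the P10 arrays. All P5 arrays were thus far above all P10 arrays, and the P10 arrays were spread widely among themselves (-4.80 ± 0.657, 27.9-fold lower, adjusted p = 0.00572, and 0.0798 without P5 arrays 2 and 3). Its target Slc40a1, which encodes ferroportin, the iron exporter that hepcidin removes from the cell surface, read 8.26, 8.23 and 7.91 at P5 and 9.62, 9.59 and 9.95 at P10, a 3.0-fold rise with no overlap (1.59 ± 0.127, adjusted p = 0.000705). These were the only calls among 22 iron handling genes, or 9.09%, against 5.65% of all genes called in either direction. The median difference of the list was -0.165, and -0.204 without P5 arrays 2 and 3. Without P5 array 1 or without P10 array 1, 2 fell.

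Imprinted genes, expressed from a single parental allele, include a network that controls fetal growth and is turned down after birth. Of 24 measured, 15 fell and none rose, with a median difference of -1.16 against -0.00153 over all genes; without P5 arrays 2 and 3, 11 fell and the median was -1.19. Plagl1, a zinc finger factor that regulates other imprinted genes, read 9.94, 9.95 and 9.80 at P5 and 8.06, 7.47 and 7.33 at P10 (-2.28 ± 0.171, adjusted p = 0.000594). Dlk1, a surface protein of fetal liver and mesenchymal progenitors, read 9.56, 9.42 and 9.23 at P5 and 7.74, 7.36 and 7.60 at P10, with all P5 arrays above all P10 arrays (-1.84 ± 0.136, adjusted p = 0.000594). Meg3, a noncoding RNA of the same imprinted locus as Dlk1, fell from 10.42, 10.70 and 10.30 to 8.45, 7.54 and 7.92, which is 5.69-fold (adjusted p = 0.000749).

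Mest, an imprinted gene of the hydrolase family, went from 10.20, 10.07 and 10.17 to 8.02, 8.61 and 8.39 (-1.81 ± 0.138, adjusted p = 0.000643), and Zim1, a zinc finger gene, from 8.30, 9.28 and 8.26 to 5.60, 6.90 and 6.06 (-2.43 ± 0.366, adjusted p = 0.00871, and 0.0665 without P5 arrays 2 and 3). Igf2r, the receptor that takes up and degrades IGF2, fell 2.26-fold. Igf2 itself, the fetal growth factor, was above the value that 1% of signals exceeded on each postnatal array (12.31 to 12.42), at 12.86, 12.86 and 12.85 at P5 and 12.65, 12.65 and 12.48 at P10. Its difference of -0.26 ± 0.0619 only just passed (adjusted p = 0.048) and the call was lost whichever of the 6 postnatal arrays was left out. Cdkn1c, an imprinted inhibitor of the cell cycle that did not pass, read 11.05, 10.79 and 11.14 at P5 and 11.01, 10.67 and 10.57 at P10.

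**Figure D3:**
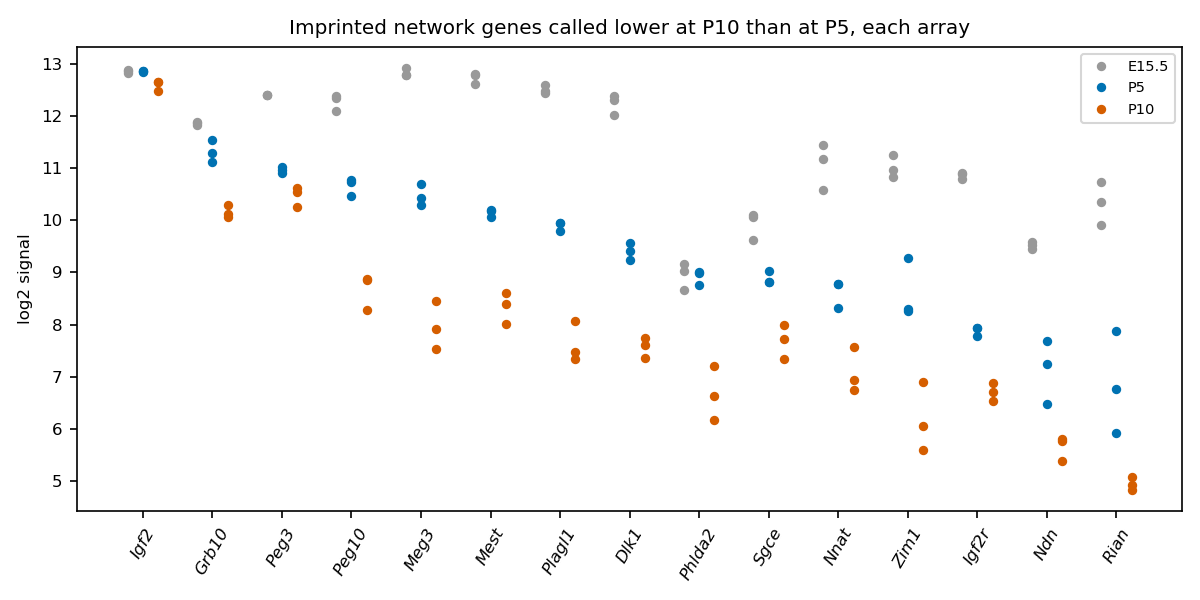
Log2 signal (vertical axis) of the 15 imprinted genes that fell, each point an array (E15.5 grey, P5 blue, P10 orange). Dlk1, Meg3, Mest and Plagl1 are lower on every P10 array than on every P5 array, while Igf2 stays between 12.48 and 12.86 on the postnatal arrays.

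The list of fetal RNA-binding, chromatin and let-7 genes also holds other fetal genes, and of its 18 members 5 fell and none rose. The median was -0.274, and -0.249 without P5 arrays 2 and 3. The 5 were Gpc3, Afp, Bex4, Bex1 and Sall4, and no RNA-binding or let-7 gene of the list was among them. Gpc3, a glypican anchored to the cell surface that is abundant in fetal liver, read 10.86, 10.78 and 10.83 at P5 and 8.45, 8.63 and 8.50 at P10, the replicates differing little (-2.30 ± 0.0723, 4.91-fold lower, adjusted p = 1.34e-05). Afp, which encodes the fetal counterpart of albumin, read 12.86, 12.73 and 13.04 at P5 and 10.86, 10.44 and 10.92 at P10 (-2.14 ± 0.132, adjusted p = 0.000357). Alb did not pass the test (-0.08 ± 0.0604, adjusted p = 0.617). Afp at P5 and Alb at both stages also lay above the value that 1% of signals exceeded. Bex4 and Bex1, small adaptor-like proteins, fell by 0.90 and 1.06. Sall4, a stem cell zinc finger factor named here after its value was seen, fell by 0.61 (adjusted p = 0.044), a call lost whichever of the 6 postnatal arrays was left out. The let-7 antagonist Lin28b was already at 4.73, 4.63 and 4.88 at P5, with 4.93, 4.76 and 4.72 at P10, below the percentile named above.

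Mesothelial genes, those of the cell layer that covers the liver, were lower at P10. Of 20 measured, 11 fell and none rose (median -0.875), and the mean over the list went from 8.05, 8.36 and 8.43 at P5 to 7.19, 7.04 and 6.99 at P10. Upk1b, a uroplakin of the mesothelial membrane, read 8.48, 8.86 and 8.87 at P5 and 5.76, 5.90 and 5.65 at P10, 7.81-fold lower with no overlap (-2.97 ± 0.132, adjusted p = 7.31e-05). Its relative Upk3b read 9.22, 9.90 and 9.73 at P5 and 7.26, 7.33 and 7.0 at P10 (-2.42 ± 0.165, adjusted p = 0.000489). Msln, the surface glycoprotein mesothelin, read 8.20, 8.75 and 9.40 at P5 and 6.32, 6.34 and 6.17 at P10 (-2.51 ± 0.257, adjusted p = 0.00166). The P5 arrays differed from each other in Msln, but each exceeded all P10 arrays.

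Wt1, the transcription factor of mesothelium and its descendants, read 8.11 on each P5 array and 6.69, 7.04 and 6.88 on the P10 arrays (-1.24 ± 0.0973, adjusted p = 0.000705). Muc16, a membrane mucin that binds mesothelin, read 6.59, 8.14 and 8.66 at P5 and 5.20, 5.04 and 4.87 at P10 (adjusted p = 0.0125), with all P10 signals under the value below which 30% of signals fell. Gpm6a, a membrane glycoprotein, fell by 2.48 (adjusted p = 0.00488, and 0.0752 without P5 arrays 2 and 3). Lrrn4 fell by 1.38 and the simple keratin Krt19, shared with bile duct cells, fell by 1.71. Cdh1, the epithelial cadherin, fell by 0.66 (adjusted p = 0.0303), a call lost without P5 array 2, P5 array 3 or any single P10 array. Within P5 the list was not even, since 15 of its 20 genes were higher on arrays 2 and 3 than on array 1. Without those 2 arrays 7 genes fell and the median was -0.638.

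The portal fibroblast list moved in the same direction, with 9 of 22 genes lower, none higher and a median of -0.657 (7 lower and -0.788 without P5 arrays 2 and 3). Its mean was 8.11, 8.25 and 7.87 on the P5 arrays and 7.24, 7.33 and 7.32 on the P10 arrays. Besides Msln, which both lists hold, Fbln1, an elastic fibre and basement membrane protein, read 7.46, 7.44 and 7.19 at P5 and 6.72, 6.68 and 6.71 at P10 (-0.65 ± 0.0808, adjusted p = 0.00381). Ltbp1, which tethers latent TGF-beta to the matrix, fell by 0.95 (adjusted p = 0.00396) and Gas6, a ligand of TAM receptors, fell by 0.74 (adjusted p = 0.00457). Among bile duct genes, 2 of 12 fell (2 also without P5 arrays 2 and 3), Krt19 and Sox9, the latter a factor of duct and progenitor cells that read 9.50, 9.31 and 9.01 at P5 and 8.29, 8.34 and 8.34 at P10 (adjusted p = 0.0092). Other genes of large fall outside these lists were S100a6, a calcium-binding protein (10.64, 10.49 and 9.12 at P5; 5.99, 7.25 and 7.21 at P10; adjusted p = 0.00726), and Cav1, the main protein of caveolae (8.67, 9.35 and 8.97; 6.16, 6.64 and 6.64; adjusted p = 0.000594). Cpe, a carboxypeptidase that trims peptide hormones, read 8.63, 9.19 and 8.66 at P5 and 5.52, 5.45 and 6.07 at P10, where the mean was among those low signals, so no fold is given (adjusted p = 0.000838), and Spink1, a trypsin inhibitor, fell 6.26-fold. In all 4 genes each P5 array exceeded each P10 array.

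Of 39 stellate cell genes 7 fell and none rose (median -0.159), and the list averaged 8.18, 7.87 and 7.84 at P5 and 7.61, 7.83 and 7.71 at P10; without P10 array 2 the number was 4, and without P5 arrays 2 and 3 it was 5, with a median of -0.36. Within P5, 26 of the 39 were higher on array 1 than on arrays 2 and 3. Foxf1, a forkhead factor of liver mesenchyme, read 8.37, 8.28 and 8.36 at P5 and 7.31, 7.54 and 6.96 at P10, with no overlap (-1.07 ± 0.134, adjusted p = 0.00388); a second, dimmer probe set for Foxf1 differed by only -0.23. Alcam, an adhesion molecule of fetal stellate and mesothelial cells, read 10.33, 10.39 and 10.33 at P5 and 9.56, 9.31 and 9.25 at P10 (-0.98 ± 0.0928, adjusted p = 0.00116). The actin-binding protein gene Tagln2 fell by 0.85 and Colec10, a secreted collectin, fell 2.0-fold. Pdgfra, a PDGF receptor of mesenchymal cells, read 8.49, 8.11 and 7.56 at P5 and 6.90, 7.31 and 7.20 at P10 (adjusted p = 0.0457), and kept the call only when P5 array 3 was the array left out. Pdgfrb read 7.83, 7.27 and 7.13 at P5 and 6.80, 7.33 and 7.01 at P10 (adjusted p = 0.41), and Reln, a secreted glycoprotein typical of stellate cells, read 9.31, 8.71 and 9.17 at P5 and 8.90, 9.22 and 8.85 at P10 (adjusted p = 0.90). The groups overlapped in both.

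Of 20 contractile genes 3 fell and none rose (median -0.545); the number was 1 without P5 array 1, P10 array 1 or P10 array 2, and 4 without P5 arrays 2 and 3. Flna, the actin crosslinker filamin A, read 8.16, 8.09 and 8.10 at P5 and 6.62, 6.86 and 6.99 at P10 (-1.29 ± 0.114, adjusted p = 0.000852). Actg2 and Cnn2, both of smooth muscle, fell by 1.54 and 0.89, with adjusted p-values of 0.0397 and 0.0261; Actg2 did not pass without P5 array 1, P5 array 2 or any single P10 array, nor Cnn2 without P5 array 1, P5 array 3, P10 array 1 or P10 array 2. Acta2, the smooth muscle actin by which myofibroblasts are known, read 10.38, 9.99 and 9.57 at P5 and 7.78, 8.82 and 9.05 at P10. The stages did not overlap, but the difference of -1.43 ± 0.342 missed the threshold (adjusted p = 0.0506).

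Structural matrix genes fell in every matrix list, with no member higher. Of 35 genes of fibrillar collagens and their processing, 11 fell (median -0.491). Col1a1, a chain of type I collagen, read 9.29, 9.43 and 9.15 at P5 and 8.37, 8.33 and 8.42 at P10 (-0.91 ± 0.0797, 1.88-fold lower, adjusted p = 0.000819), and Col3a1 read 9.92, 9.96 and 9.64 at P5 and 8.79, 9.01 and 8.93 at P10 (adjusted p = 0.00246). The P10 arrays lay close together in both and below all P5 arrays. Lox, which crosslinks collagen, fell by 1.19 and the collagen chaperone gene Serpinh1 fell by 0.79. The number was 7 without P5 array 1, 6 without P5 array 2, 7 without P10 array 2, and 8 without P5 arrays 2 and 3.

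Of 27 basement membrane genes 13 fell (median -0.369). Agrn (agrin) fell by 0.57, Hspg2 (perlecan) by 0.48, Lama5 (a laminin chain) by 0.51 and Frem1 by 0.95. Agrn read 7.13, 7.21 and 7.13 at P5 and 6.51, 6.57 and 6.68 at P10 (adjusted p = 0.00222), so the stages were apart although the change was only 1.49-fold. Fewer fell whichever postnatal array was left out: 9 without P10 array 3, 8 without P5 array 1, 2 or 3, 7 without P10 array 1 and 6 without P10 array 2; without P5 arrays 2 and 3 it was also 6. Of 39 proteoglycan, matricellular and elastic fibre genes 12 fell (median -0.569; 10 without P5 arrays 2 and 3). Vcan, the large proteoglycan versican, read 7.95, 8.21 and 7.46 at P5 and 5.80, 5.99 and 6.05 at P10 (-1.93 ± 0.174, adjusted p = 0.000918). Fn1, fibronectin, which hepatocytes also secrete, read 11.58, 11.40 and 11.67 at P5 and 10.56, 10.34 and 10.51 at P10 (-1.08 ± 0.0972, adjusted p = 0.000918). Ccn1, a matricellular protein induced by stretch and serum, fell by 1.27 (adjusted p = 0.0296), a call lost without P5 array 1, P5 array 2, P10 array 1 or P10 array 2.

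Matrix proteases and their inhibitors fell alongside, in 8 of 26 genes (median -0.398; 8 also without P5 arrays 2 and 3). Timp2, an inhibitor of matrix metalloproteinases, read 9.02, 8.96 and 8.74 at P5 and 7.18, 7.18 and 7.34 at P10, 3.19-fold lower (adjusted p = 0.000484). Mmp14, the membrane protease that activates MMP2 together with TIMP2, read 9.05, 9.16 and 9.12 at P5 and 8.25, 8.05 and 8.23 at P10 (-0.93 ± 0.0874, adjusted p = 0.00112), and Mmp2 fell by 0.87 (adjusted p = 0.00479). All 3 members of that activation complex were thus lower on each P10 array than on each P5 array. The number that fell was 5 without P5 array 1, P5 array 2 or P10 array 1 and 4 without P10 array 2 or 3.

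**Figure D4:**
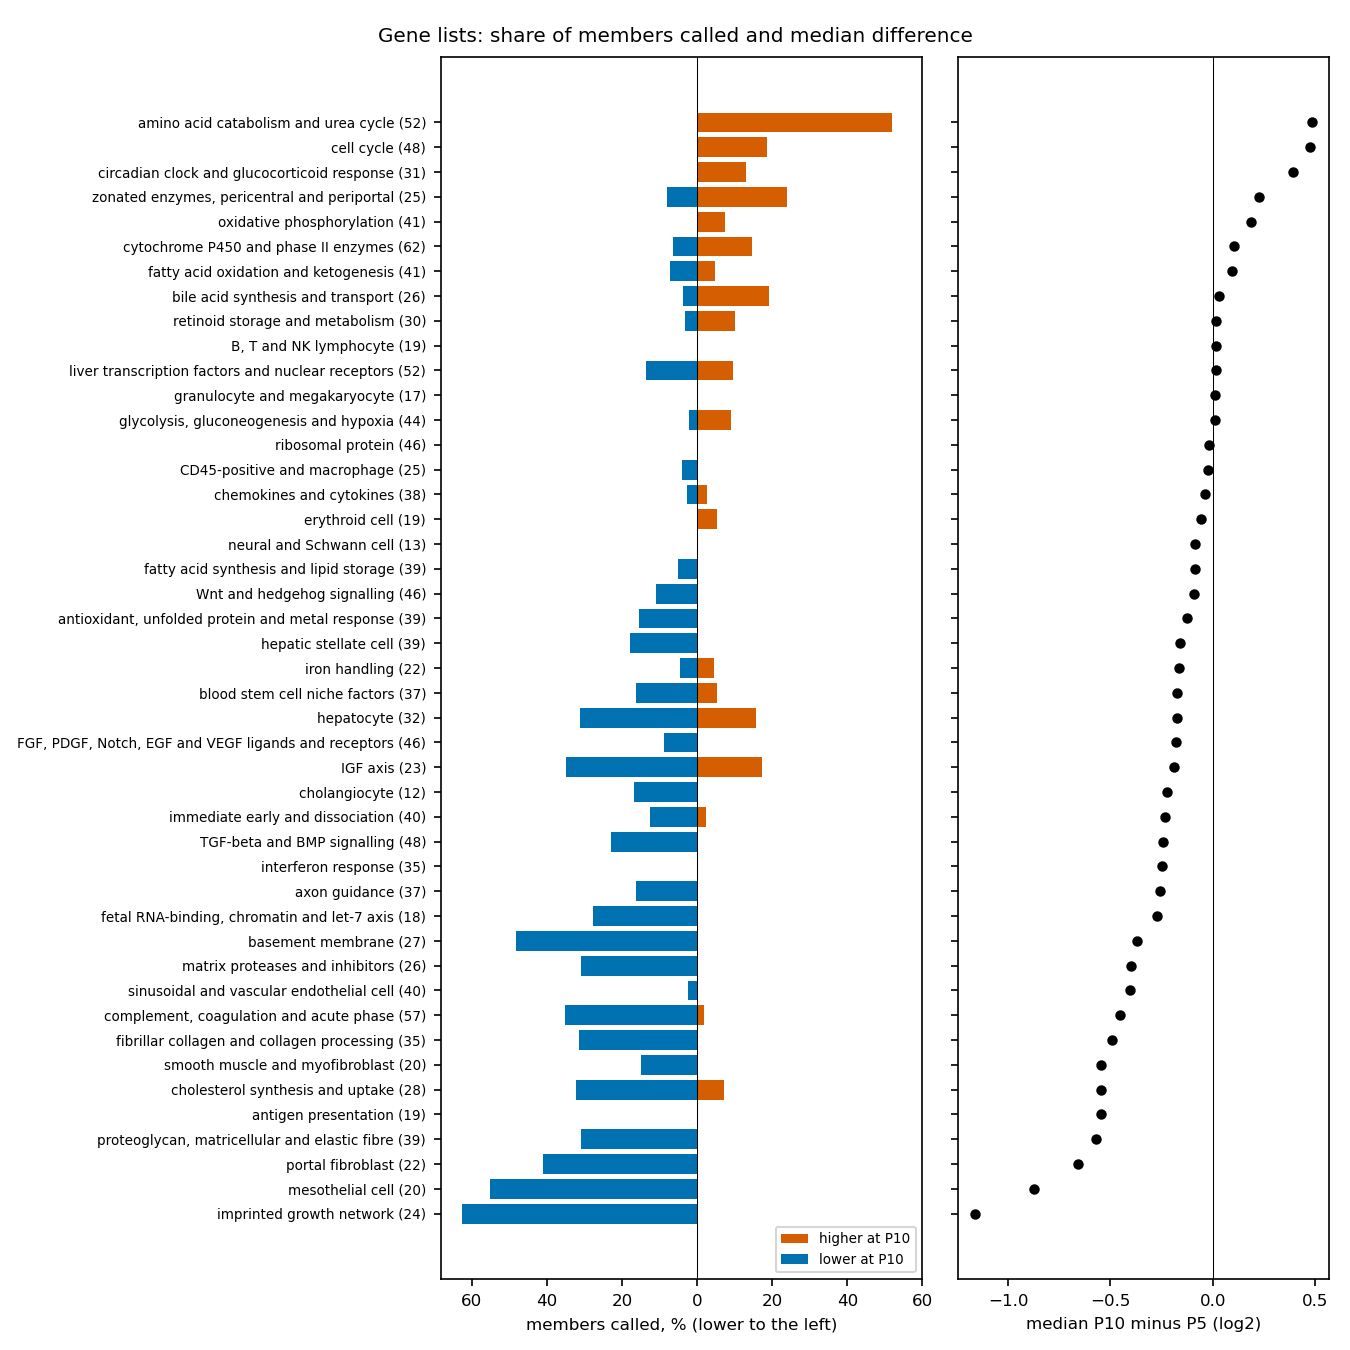
Share of each list's measured genes (number in brackets) called higher (orange, to the right) or lower (blue, to the left) at P10, in percent, beside the list's median difference in log2 signal. The imprinted (median -1.16), mesothelial (-0.875) and portal fibroblast (-0.657) lists stand at the lower end, and the amino acid catabolism (0.486) and cell cycle (0.475) lists at the upper end.

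In the TGF-beta and BMP list 11 of 48 genes fell and none rose (median -0.243; 7 without P10 array 1 or P10 array 2, and 6 without P5 arrays 2 and 3). Fstl1, a secreted BMP antagonist, read 9.24, 8.97 and 9.16 at P5 and 7.72, 7.90 and 7.97 at P10 (-1.26 ± 0.115, adjusted p = 0.000974). Id3, a direct target of BMP signalling that inhibits helix-loop-helix factors, read 9.48, 9.65 and 9.16 at P5 and 7.42, 7.90 and 7.95 at P10, a fall of 3.18-fold (adjusted p = 0.00318). Ltbp4, a relative of Ltbp1, fell by 0.77.

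In the Wnt and hedgehog list the median difference was -0.0908, and -0.126 without P5 arrays 2 and 3. Without P5 array 1 or without P10 array 2 the number that fell was 3. With all arrays 5 of 46 genes fell and none rose, or 10.9%, against 5.65% of all genes called in either direction. The secreted Wnt antagonists Sfrp1 and Sfrp2 were among them: Sfrp1 read 8.91, 8.57 and 8.19 at P5 and 6.80, 7.28 and 7.19 at P10 (-1.46 ± 0.187, adjusted p = 0.0042), and Sfrp2 read 7.32, 7.14 and 7.32 at P5 and 6.24, 6.26 and 6.14 at P10 (-1.04 ± 0.0719, adjusted p = 0.000511). Fzd4, a Wnt receptor, fell by 1.20 (adjusted p = 0.000749). Gli3, a transcription factor of the hedgehog pathway, fell by 0.51 (adjusted p = 0.0195), a call lost without P5 array 1, P10 array 1 or P10 array 2. The fifth, the receptor gene Fzd2, named after its value was seen, fell by 0.75 (adjusted p = 0.0417), a call lost whichever of the 6 postnatal arrays was left out. Axon guidance genes, which vessels and stroma also use, fell in 6 of 37 (median -0.258), with 3 called without P5 array 2 and 2 whichever P10 array was left out; 6 were called without P5 arrays 2 and 3. Plxna4 fell by 0.52 and Sema5a by 0.72. Ptn, the secreted growth factor pleiotrophin, read 9.81, 10.18 and 9.09 at P5 and 6.47, 7.48 and 7.15 at P10, 6.31-fold lower with no overlap (adjusted p = 0.00307).

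Of 46 FGF, PDGF, Notch, EGF and VEGF genes 4 fell and none rose (median -0.179), or 8.7%, against 5.65% of all genes called in either direction. Egfr, the EGF receptor, read 8.20, 8.11 and 8.05 at P5 and 7.49, 7.48 and 7.34 at P10 (-0.68 ± 0.0823, adjusted p = 0.00346). The others were Pdgfra, given above, Pdgfa, one of its ligands (fell by 0.35, adjusted p = 0.0435), and Fgf18 (fell by 0.40, adjusted p = 0.0353). Pdgfa passed only when P5 array 3 was the array left out, and Fgf18 lost the call whichever of the 6 was left out. The number was 2 without P5 array 1 or P10 array 1, 1 without P5 array 2 or P10 array 3, and 2 without P5 arrays 2 and 3.

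Genes by which stroma is known to support blood stem cells were mostly lower at P10 where they changed. Of 37, 6 fell and 2 rose (median -0.176). Kitl, whose product activates KIT on blood progenitors, read 6.53, 6.64 and 6.59 at P5 and 5.90, 6.14 and 5.50 at P10 (-0.74 ± 0.153, adjusted p = 0.0303); the call was lost without P5 array 1, 2 or 3 or P10 array 1. Lepr, the leptin receptor that marks perivascular stroma of adult marrow, read 7.89, 7.62 and 7.79 at P5 and 6.54, 6.39 and 6.73 at P10 (-1.21 ± 0.1, adjusted p = 0.000749). Cdh11, a cadherin of mesenchymal cells, read 7.71, 7.90 and 7.90 at P5 and 6.70, 6.86 and 6.66 at P10 (adjusted p = 0.000749). In both genes the stages were well apart.

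Il7, the cytokine of lymphocyte precursors, was higher at P10, with 5.88, 5.88 and 5.83 at P5 and 6.44, 7.24 and 7.59 at P10 (1.23 ± 0.267, adjusted p = 0.0359), although the call was lost without P5 array 1, 2 or 3 or P10 array 2 or 3. Without single arrays the niche list had 3 lower genes without P5 array 1, P5 array 2 or P10 array 1, 1 higher gene without P10 array 1 and 0 without each other postnatal array; without P5 arrays 2 and 3 it had 3 lower and 0 higher. Ackr3, the scavenger receptor that binds CXCL12, read 6.48, 6.72 and 7.41 at P5 and 5.42, 5.15 and 5.63 at P10 (-1.47 ± 0.24, adjusted p = 0.0119). All its P10 signals lay under the value below which 30% of all signals fell. Without P5 arrays 2 and 3 its difference was -1.08. The gene of its ligand, Cxcl12, whose reporter was used for the sort at both stages, did not differ beyond the spread.

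In the IGF axis, which carries the growth signal of IGF1 and IGF2, of 23 genes 8 fell and 4 rose (median -0.19). Of the binding proteins, which carry IGFs and limit their access to the receptor, Igfbp5 read 8.65, 9.25 and 9.49 at P5 and 6.86, 6.81 and 6.55 at P10, 5.25-fold lower (adjusted p = 0.000705), and Igfbp6 read 8.70, 9.27 and 9.06 at P5 and 7.40, 7.16 and 7.24 at P10 (-1.75 ± 0.158, adjusted p = 0.000927). The stages did not overlap in either. Irs2, an adaptor of the insulin receptor, read 8.16, 7.95 and 8.28 at P5 and 9.08, 8.90 and 8.94 at P10 (0.84 ± 0.106, adjusted p = 0.00403). Stat5b, which carries the growth hormone signal, rose by 0.64 (adjusted p = 0.0269), a call lost without P5 array 1, P5 array 2, P10 array 1 or P10 array 2. Igf1, the postnatal growth factor made under growth hormone, read 10.51, 10.51 and 10.55 at P5 and 11.22, 10.94 and 11.01 at P10 (0.54 ± 0.126, adjusted p = 0.0472), and the call was lost whichever of the 6 postnatal arrays was left out. The number that rose was 1 without P5 array 1, P5 array 2 or P10 array 2 and 2 without P10 array 1 or 3; the number that fell was 5 without P5 array 1 and 4 without P10 array 2. Without P5 arrays 2 and 3, 1 rose and 5 fell.

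Enzymes of amino acid breakdown formed the largest group of rising genes among the lists examined: 27 of 52 rose and none fell, with a median difference of 0.486. Without P10 array 2 the number was 16, and without P5 arrays 2 and 3 it was 13 with a median of 0.512. Tdo2, the enzyme that opens the ring of tryptophan, read 9.97, 9.34 and 10.15 at P5, and 11.68 and 11.74 on P10 arrays 1 and 3 with P10 array 2 higher still (1.98 ± 0.227, adjusted p = 0.00265). Ido2, an enzyme of the same reaction, rose by 0.86. Further down the kynurenine pathway, Acmsd, which diverts an intermediate away from NAD synthesis, read 6.26, 6.33 and 6.05 at P5 and 8.29, 7.91 and 8.51 at P10, a 4.08-fold rise (adjusted p = 0.000594). The transcripts of all 3 enzymes were higher on every P10 array than on every P5 array.

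Oat, which links ornithine to glutamate and is pericentral in adult liver, read 10.39, 9.14 and 9.32 at P5 and 11.95, 11.68 and 11.98 at P10 (2.25 ± 0.289, adjusted p = 0.00422). The P5 arrays were uneven, with array 1 higher, and all lay below the P10 arrays. The histidine enzymes Hal and Amdhd1 rose by 0.95 and 1.09: Hal read 9.49, 9.91 and 9.83 at P5 and 10.51, 10.86 and 10.71 at P10, and Amdhd1 read 10.07, 9.74 and 9.88 at P5 and 10.96, 10.95 and 11.05 at P10. Asl, of the urea cycle, rose by 0.63 (adjusted p = 0.00381). Tat, the tyrosine aminotransferase induced by glucocorticoid, rose by 0.64 (adjusted p = 0.0203), a call lost without P5 array 1 or any single P10 array. Cps1, which starts the urea cycle, read 10.43, 10.50 and 10.43 at P5 and 11.78, 11.24 and 11.55 at P10 and yet did not pass (1.07 ± 0.384, adjusted p = 0.174). As in every such test here, the SE draws on the spread of all 9 arrays, E15.5 included, and not on these values alone. The mean of the hepatocyte marker list, given above, did not rise on any P10 array beyond its range at P5. In that list 5 genes rose, Tdo2 among them, and 10 fell, so its mean joins opposite changes. A change in the share of hepatocyte RNA was not tested.

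**Figure D5:**
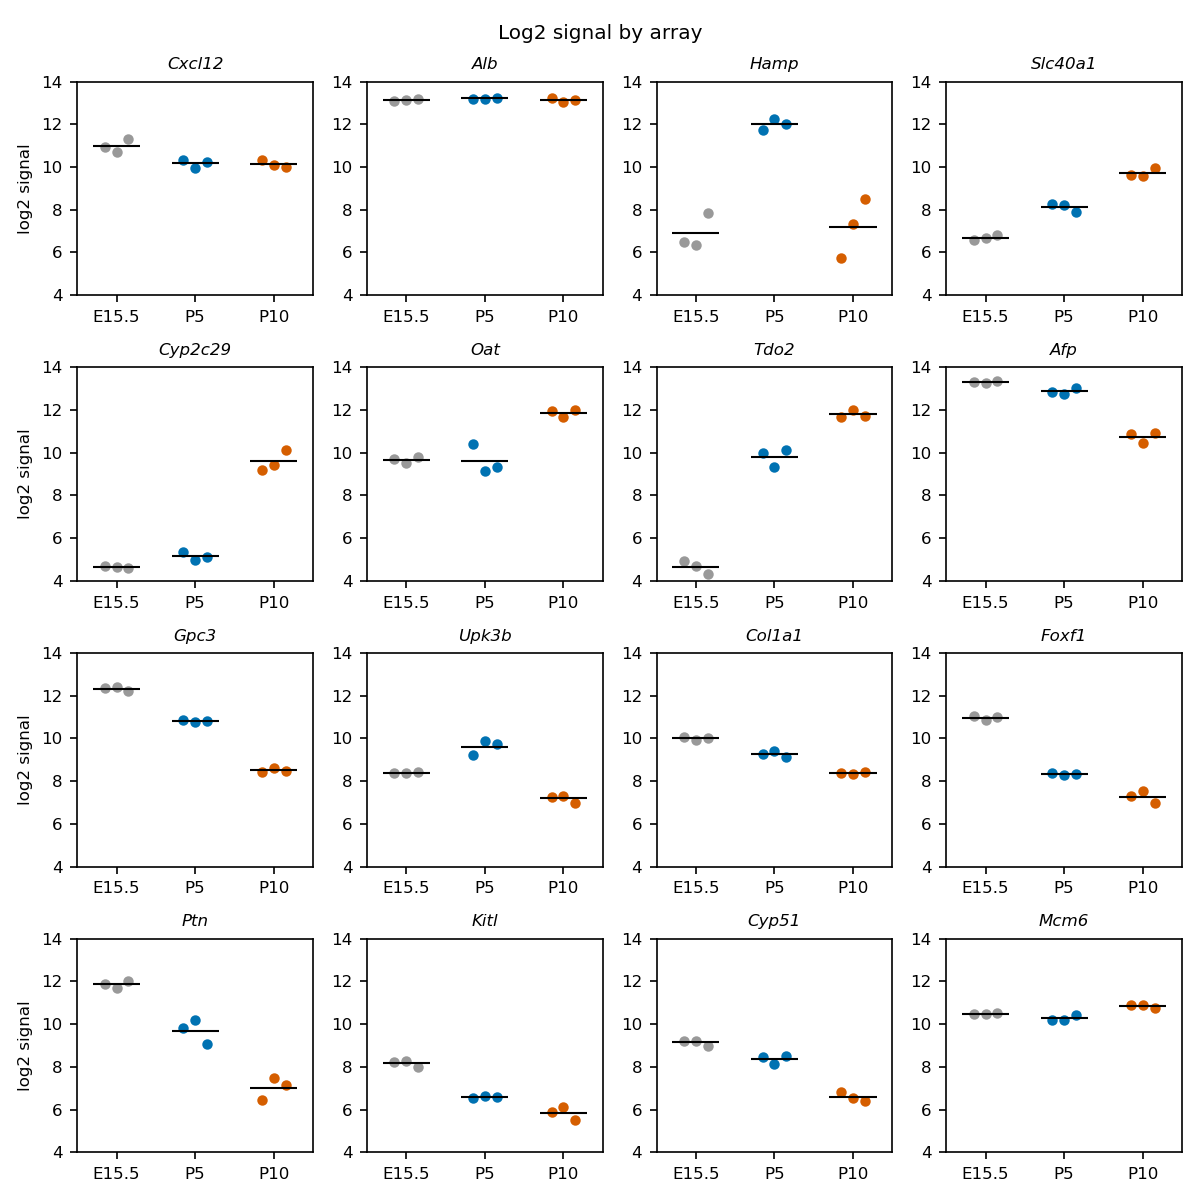
Log2 signal on each array by stage (E15.5 grey, P5 blue, P10 orange; lines mark stage means) for 16 genes of the text, on a shared axis from 4 to 14. Cxcl12 and Alb stay level from P5 to P10; Hamp is high at P5 only; Cyp2c29, Oat, Tdo2 and Slc40a1 are higher on every P10 array, and the remaining genes shown, apart from Mcm6, are lower.

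The list of cytochrome P450 and conjugation enzymes holds 62 genes, the receptor gene Ahr among them, of which 9 rose and 4 fell. The median was 0.104, and 0.0409 without P5 arrays 2 and 3. Without P10 array 2 the number that fell was 2. Cyp2c29, a drug- and fatty acid-oxidising P450 of pericentral hepatocytes, read 5.35, 4.99 and 5.12 at P5 and 9.20, 9.43 and 10.15 at P10 (4.44 ± 0.219, adjusted p = 0.000128). Its relative Cyp2c55, outside the list, read 4.75, 4.71 and 4.86 at P5 and 7.61, 7.23 and 7.38 at P10 (adjusted p = 3.61e-05). The P5 signals of both lay under the value below which 30% of all signals fell, so no fold is given. Ahr, the receptor for aryl hydrocarbons, rose by 0.91 (adjusted p = 0.000705), the methyltransferase gene Inmt by 1.15 (adjusted p = 0.00118) and the glucuronosyltransferase gene Ugt2a3 by 2.15 (adjusted p = 0.005, and 0.065 without P5 arrays 2 and 3).

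Lower in that list was the sulfotransferase gene Sult5a1 (-1.015 ± 0.0911, limma adjusted p = 0.00091). The epoxide hydrolase gene Ephx1, named after its value was seen, also fell (-0.84, adjusted p = 0.0165), a call lost without P10 array 1 or P10 array 2. Cyp4a10 and Cyp4a14, fatty acid hydroxylases regulated by PPAR-alpha, were lower too. Cyp4a10 read 10.12, 9.72 and 9.71 at P5 and 8.62, 8.77 and 8.76 at P10 (-1.13 ± 0.121, adjusted p = 0.00199). Cyp4a14 fell by 0.94 (adjusted p = 0.0164), a call lost without P10 array 2. Ppara itself went the other way, reading 10.64, 10.50 and 10.87 at P5 and 11.18, 11.25 and 11.02 at P10 (0.48 ± 0.103, adjusted p = 0.0342); its call was lost without P5 array 1, P5 array 2, P10 array 1 or P10 array 2. Over 41 genes of fatty acid oxidation and ketogenesis 2 rose and 3 fell (median 0.0935), or 12.2%, against 5.65% of all genes called in either direction. Higher calls numbered 1 without P5 array 1 or 3 and 0 without P5 array 2, P10 array 1 or P10 array 2, lower calls numbered 1 without P10 array 2, and without P5 arrays 2 and 3 there were 0 and 2.

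Among 25 zonated enzymes and other zonated genes, whose levels differ along the axis from portal to central vein, 6 rose and 2 fell (median 0.226). Those that rose included Cyp2c29 and Oat, which are pericentral, and Hal and Pck1, which are periportal. Pck1, the rate-limiting enzyme of gluconeogenesis, read 11.49, 11.75 and 12.07 at P5 and 12.82, 12.81 and 12.65 at P10 (0.99 ± 0.138, adjusted p = 0.00619). The 2 that fell were Slc13a3, a carrier of dicarboxylates, which fell by 0.76, and Cdh1, given above, and neither is an enzyme. Glul, which marks the hepatocytes nearest the central vein, read 13.06, 12.93 and 12.93 at P5 and 12.96, 13.03 and 13.02 at P10 and did not pass (adjusted p = 0.937). The number that fell was 1 without P5 array 2 or 3 or any single P10 array, and without P5 arrays 2 and 3, 4 rose and 0 fell.

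Other metabolic genes of large rise were Serpina6, Atp6v0d2 and Upp2. Serpina6, which encodes the corticosteroid-binding globulin of plasma, read 8.99, 6.38 and 9.12 at P5 and 11.87, 11.15 and 11.59 at P10 (3.37 ± 0.64, 10.4-fold, adjusted p = 0.0219). P5 array 2 was far below the other P5 arrays, all of which lay below P10, and the call was lost whichever P10 array was left out. Atp6v0d2, a subunit of the vacuolar proton pump, was even within each stage, at 7.34, 7.39 and 7.39 at P5 and 10.34, 9.99 and 10.19 at P10 (6.98-fold, adjusted p = 0.000357). Upp2, a uridine phosphorylase of liver, rose by 2.11 and the organic anion transporter gene Slc22a27 rose by 2.05. In the retinoid list 3 of 30 rose and 1 fell, or 13.3%, against 5.65% of all genes called in either direction. There were 2 lower without P5 array 2 and 0 lower without P10 array 1 or 2. The median was 0.0184, and -0.0173 without P5 arrays 2 and 3. Those that rose included Aldh1a1, a retinaldehyde dehydrogenase, which read 7.28, 7.84 and 7.31 at P5 and 9.49, 9.24 and 8.54 at P10 (adjusted p = 0.00913), and the retinol dehydrogenase gene Rdh16, which rose by 1.34. Bco1, which cleaves carotene to retinal, fell by 0.49 (adjusted p = 0.0152), a call lost without P10 array 1 or P10 array 2.

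Sterol synthesis and sterol export genes moved in opposite directions. Of 28 genes of cholesterol synthesis and uptake 9 fell, all of them synthesis enzymes, and 2 rose, Abcg5 and Abcg8, the partners of the pump that exports sterols into bile. Abcg5 read 8.45, 8.46 and 8.46 at P5 and 9.53, 9.49 and 9.54 at P10, with almost no spread within a stage (1.06 ± 0.0799, adjusted p = 0.000594), and Abcg8 rose by 0.82 (adjusted p = 0.00381). Cyp51, which removes a methyl group from lanosterol, read 8.45, 8.12 and 8.52 at P5 and 6.85, 6.53 and 6.42 at P10 (-1.77 ± 0.143, adjusted p = 0.000705). Sqle, the squalene epoxidase upstream of it, read 8.68, 8.92 and 8.80 at P5 and 7.25, 6.44 and 6.52 at P10, 4.18-fold lower (adjusted p = 0.00189).

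The median of the sterol list was -0.546, and it was -0.671 without P5 arrays 2 and 3, where 2 rose and 2 fell. The number that fell depended on single arrays: it was 4 without P5 array 1, 5 without P5 array 2, 14 without P10 array 1, 3 without P10 array 2 and 5 without P10 array 3. Cyp51 and Sqle passed in each of these fits. In fatty acid synthesis and storage 2 of 39 fell, or 5.13%, no more than the 5.65% of all genes called in either direction. They were the elongase gene Elovl6, which fell by 1.02 (adjusted p = 0.00131), and the desaturase gene Scd2, which fell by 0.61 (adjusted p = 0.0219). Scd2 did not pass without P5 array 1, P10 array 1 or P10 array 2, and the number that fell was 1 without P10 array 2. The list median was -0.0853, and -0.144 without P5 arrays 2 and 3. Of 26 bile acid genes 5 rose and 1 fell (median 0.0288), among them the uptake carrier gene Slco1a4, which rose by 1.12 from low signals of 4.95, 4.88 and 5.06 at P5 (adjusted p = 0.000669), and Acox2, of side chain oxidation, which rose by 0.76 (adjusted p = 0.0109). Nr0b2, the repressor of bile acid synthesis, read 10.06, 10.12 and 9.73 at P5 and 10.43, 10.78 and 10.60 at P10 (0.63 ± 0.119, adjusted p = 0.0215), but the call was lost without P10 array 2 or 3. The number that rose was 3 without P5 array 1, P5 array 2, P10 array 1 or P10 array 3 and 2 without P10 array 2, 0 fell whichever postnatal array was left out, and without P5 arrays 2 and 3, 3 rose and 0 fell.

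Plasma proteins of defence and clotting, products of hepatocytes, were lower at P10: of 57 genes 20 fell and 1 rose (median -0.454). Lbp, which binds bacterial lipopolysaccharide, read 10.73, 11.12 and 11.01 at P5 and 10.15, 9.99 and 9.96 at P10 (-0.92 ± 0.112, adjusted p = 0.00358). C2, a complement protease, read 8.51, 8.50 and 8.43 at P5 and 7.79, 7.64 and 7.30 at P10 (adjusted p = 0.00437), and A2m, a broad protease inhibitor, fell by 1.13 (adjusted p = 0.00411). The groups were separate in all 3. Saa4, a constitutive apolipoprotein, rose by 0.83 (adjusted p = 0.0298), a call lost without P5 array 1, P5 array 2 or any single P10 array. The number that fell was 12 without P10 array 2, and without P5 arrays 2 and 3 it was 1, with a median of -0.379. In the hepatocyte list, which shares the 3 fibrinogen chains and prothrombin with this one, 10 fell and 5 rose (median -0.176), Apob by 0.97 downward and Pck1 and Tdo2 upward as given above; without P5 arrays 2 and 3 there were 3 higher and 2 lower. Single arrays moved these counts too: higher calls were 2 without P10 array 1 or 2 and 3 without P10 array 3, and lower calls were 5 without P5 array 1, P5 array 2 or P10 array 2 and 6 without P5 array 3 or P10 array 3.

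Of 39 genes of antioxidant, unfolded protein and metal responses 6 fell and none rose (median -0.125; 3 without P5 arrays 2 and 3). Among the 6 were chaperones of the endoplasmic reticulum, which fold secreted and membrane proteins. Pdia6, a disulfide isomerase, read 9.61, 9.41 and 9.36 at P5 and 8.26, 8.40 and 8.55 at P10 (-1.05 ± 0.0928, adjusted p = 0.000847). Hsp90b1, the reticulum form of HSP90, read 11.39, 11.54 and 11.53 at P5 and 10.60, 10.64 and 10.98 at P10 (adjusted p = 0.00608, and 0.0842 without P5 arrays 2 and 3). Pdia4 fell by 0.86, while its second probe set differed by only -0.07. Calr, the chaperone calreticulin, fell by 0.70. P10 array 3 was the highest of its stage in each of these 4.

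Of 48 cell cycle genes 9 rose and none fell, with a median of 0.475. An unadjusted p under 0.05 in limma was reached by 28, all higher, and by 18.1% of all genes in either direction. Mcm6, a subunit of the replicative helicase, read 10.19, 10.22 and 10.41 at P5 and 10.89, 10.92 and 10.78 at P10 (0.59 ± 0.073, 1.5-fold, adjusted p = 0.00382). Pcna, the sliding clamp of DNA polymerase, read 11.76, 11.96 and 11.97 at P5 and 12.29, 12.28 and 12.36 at P10 (0.41 ± 0.0687, adjusted p = 0.0131), and its second probe set differed by 0.40. The steps were small, and the stages did not overlap. Mcm5, another helicase subunit, rose by 0.53 (adjusted p = 0.0151), a call lost without P10 array 3, and E2f8, a repressor among the E2F factors, rose by 0.92 (adjusted p = 0.0131), a call lost without P10 array 2. Mki67, the usual marker of cycling cells, overlapped between stages, at 8.34, 7.86 and 8.89 at P5 and 8.86, 8.65 and 8.53 at P10 (0.32 ± 0.225, adjusted p = 0.552). P5 array 3 was the highest P5 array for Mki67, and without it 19 of the list rose; without P10 array 2 the number was 4, and without P5 arrays 2 and 3 it was 9.

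The promoters of 3 of these genes are shown because replication genes are known to be controlled through E2F and CCAAT elements. Each is the 160 bases before the transcription start, 5′ to 3′ on the gene's strand, from RefSeq on build GRCm38.p6, with the E2F letters TTTCGCGC or TTTGGCGC and the CCAAT box letters CCAAT, on either strand, in capitals. Overlapping matches run together.

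Mcm6, chr1:128359706-128359865, minus strand: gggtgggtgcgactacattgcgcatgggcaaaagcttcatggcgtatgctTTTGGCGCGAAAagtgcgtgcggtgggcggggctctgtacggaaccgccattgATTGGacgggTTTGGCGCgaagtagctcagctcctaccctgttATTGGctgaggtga
Mcm5, chr8:75109349-75109508, plus strand: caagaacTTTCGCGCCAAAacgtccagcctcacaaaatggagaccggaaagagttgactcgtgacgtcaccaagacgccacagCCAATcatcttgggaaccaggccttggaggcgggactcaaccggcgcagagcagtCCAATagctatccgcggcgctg
Pcna, chr2:132253181-132253340, minus strand: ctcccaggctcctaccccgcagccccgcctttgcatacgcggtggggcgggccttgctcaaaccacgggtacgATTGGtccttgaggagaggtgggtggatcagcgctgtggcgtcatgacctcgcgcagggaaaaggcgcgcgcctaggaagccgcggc

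Mcm6 and Mcm5 hold both kinds of letters and Pcna the CCAAT box only. Of the 9 cell cycle genes that rose, 8 had a promoter sequence. In the 250 bases before the start, 6 of the 8 held a CCAAT box, as did 38.8% of the 15614 genes with a sequence, and 2 held the E2F letters, as did 1.07% of genes; the E2F letters were searched after the calls were known. The CHR element of mitotic genes (TTTGAA on either strand) stood in 2 of the 8, against 15.7% of genes. Other lists were searched in the same window: of 4 immediate early genes that fell and had a sequence, 0 held the cAMP response element (TGACGTCA; 2.33% of genes) and 1 the serum response element (1.45%), and of 8 such cholesterol genes 0 held a sterol response element (TCACNCCAC; 1.2%), a search added after the calls were known. A match describes these letters in this window and is not evidence of binding.

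Immediate early genes, which respond within minutes to growth signals and to tissue dissociation, were lower at P10 in 5 of 40 and higher in 1 (median -0.234). Egr1, a zinc finger factor of this class, read 11.19, 11.18 and 10.92 at P5 and 10.59, 9.99 and 10.07 at P10 (-0.88 ± 0.161, adjusted p = 0.0191), with the call lost without P5 array 1, P5 array 2, P10 array 2 or P10 array 3. Fos, named after its value was seen, read 7.75, 8.33 and 7.16 at P5 and 6.64, 5.66 and 6.21 at P10 (adjusted p = 0.0353), and was lost without the same 4 arrays. Junb fell by 0.53 (adjusted p = 0.03), a call lost whichever P10 array was left out, and Egr2, also named afterwards, fell by 0.65 (adjusted p = 0.0386), and of the fits without 1 postnatal array passed only in that without P5 array 3. The fifth is Ccn1, given above. Nfkbia, the inhibitor of NF-kappa-B, rose by 0.66 (adjusted p = 0.0252), a call lost without P10 array 2 or 3. Leaving out any array but P5 array 3 gave 2 lower genes, the higher call was lost without P10 array 2 or 3, and without P5 arrays 2 and 3 there were 1 lower and 0 higher.

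Clock and glucocorticoid genes were higher where they changed, in 4 of 31 (median 0.392), or 12.9%, against 5.65% of all genes called in either direction. Nr1d1, the clock repressor REV-ERB-alpha, read 7.73, 8.63 and 8.63 at P5 and 10.29, 9.70 and 9.31 at P10 (1.44 ± 0.295, adjusted p = 0.0296), but the call was lost without P5 array 1, P10 array 1 or P10 array 2. Tsc22d3, induced by glucocorticoid, rose by 0.70 (adjusted p = 0.0335), and of the fits without 1 postnatal array passed only in that without P10 array 3. Errfi1, a feedback inhibitor of the EGF receptor, rose by 0.39 (adjusted p = 0.0346), a call lost without P5 array 1, P5 array 2, P10 array 2 or P10 array 3. The count was 0 without P5 array 1 or P10 array 2, 1 without P10 array 1, 2 without P5 array 2, and 2 without P5 arrays 2 and 3.

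Endothelial genes are the case in which the P5 arrays decide the outcome. Of 40, 1 fell, or 2.5%, against 5.65% of all genes called in either direction, and the median difference was -0.406. The gene was Eng, a TGF-beta coreceptor of endothelium, which read 8.41, 8.56 and 8.56 at P5 and 8.01, 8.03 and 8.10 at P10 (adjusted p = 0.0264). The sinusoidal lectin gene Clec4g read 6.63, 9.78 and 9.41 at P5 and 6.97, 7.60 and 8.40 at P10, so that P5 array 1 was the lowest and P5 arrays 2 and 3 the highest of the 6 (adjusted p = 0.611). Lyve1, the hyaluronan receptor of sinusoids, was likewise lowest on P5 array 1 and highest on P5 arrays 2 and 3, at 7.06, 9.64 and 9.66 against 7.86, 7.14 and 8.02 at P10. Pecam1, the general endothelial adhesion molecule, was also highest on P5 arrays 2 and 3, at 6.60, 7.30 and 7.47 against 6.49, 6.82 and 6.72, with P10 array 1 the lowest (adjusted p = 0.319). Without P5 array 1, 17 of the 40 fell and the median was -0.709. With P5 array 2, P5 array 3 or any single P10 array left out, 0 fell, and without both P5 arrays 2 and 3 the median was 0.209 and 0 fell. The direction of the endothelial median therefore depends on which P5 arrays are used.

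The antigen presentation and interferon lists rest in the same way on P5 array 2. H2-Aa, a chain of MHC class II, read 4.78, 9.69 and 4.91 at P5 and 5.07, 4.86 and 4.84 at P10, and Cd74, the class II chaperone, read 5.41, 9.84 and 5.46 at P5 and 5.22, 5.11 and 5.22 at P10. Cxcl9, a chemokine induced by interferon-gamma, read 8.01, 12.03 and 8.96 at P5 and 7.66, 7.95 and 7.41 at P10. No member of either list passed. At an unadjusted p under 0.05 in limma there were 0 higher and 3 lower of 19 antigen presentation genes. Of 35 interferon genes 2 were higher and 2 lower at that p, against 18.1% of all genes in either direction. The medians were -0.546 and -0.248 with all arrays and -0.126 and 0.132 without P5 array 2, where 2 interferon genes rose. Without P5 arrays 2 and 3 they were -0.147 and 0.198, and no member passed.

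The step from P5 to P10 was set beside that from E15.5 to P5, for genes picked from those named after their values were seen, by testing the difference of the 2 steps; both steps share the P5 arrays, so a P5 array that reads high or low pushes them in opposite directions. Some genes continued in the same direction at a similar size: Slc40a1 changed by 1.44 ± 0.127 and then 1.59, Meg3 by -2.35 ± 0.208 and then -2.51, Ptn by -2.18 ± 0.313 and then -2.66, and Col1a1 by -0.71 ± 0.0797 and then -0.91, and in none did the steps differ past the threshold (adjusted p = 0.737, 0.836, 0.634 and 0.401). In others a smaller step followed. Foxf1 fell by 2.64 before P5 and 1.07 after it (adjusted p of the difference = 0.00255), Dlk1 changed by -2.83 and -1.84 (0.0229), and Tdo2 rose by 5.16 and then 1.98 (0.001).

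In a further set the later step was the larger. Cyp2c29, low at both earlier stages, changed by 0.50 ± 0.219 and then 4.44 (adjusted p of the difference = 0.000271), Oat by -0.06 ± 0.289 and then 2.25 (0.015), and Spink1 by 0.25 ± 0.234 and then -2.65 (0.00193). The remaining genes reversed. Hamp changed by 5.09 ± 0.657 and then -4.80 (0.000675), Msln by 2.52 ± 0.257 and then -2.51 (0.000182), and Lepr by 2.50 ± 0.1 and then -1.21 (7.43e-06). Igfbp5, Upk3b, Krt19 and Lbp rose to P5 and then fell in the same manner. Serpina6 did the opposite and changed by -4.69 ± 0.64 before P5 and by 3.37 after it (0.00176). Its P5 arrays were uneven (SD 1.54), with P5 array 2 far below the others, which enlarges both of its steps. Its rise after P5 lost the call whichever P10 array was left out.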

How the data were processed

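Total RNA from sorted cells was hybridised as biotinylated cRNA to Affymetrix arrays, per the labels' protocols. The deposited values are log2 signals normalised by RMA; RMA, Affymetrix Expression Console and Transcriptome Analysis Console 2.0 are named in the submitters' processing notes. Genome build and batch are not given in the sources used here. RMA brings arrays to a common distribution, so a shift of all genes would not be seen, and arrays hold no read depth: with 3 per stage, their number limits precision.

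Of 35556 probe sets, 21789 name 1 gene in the platform annotation, 1621 several and 12146 none listed; symbols were updated through Entrez identifiers. For the 19938 genes kept, limma 3.58.1 (lmFit, eBayes; R 4.3.3) was fitted to the 9 arrays with stage as the only term, and P10 minus P5 was called at an adjusted p under 0.05. The fitting script was tested on simulated data.

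Same-numbered arrays did not deviate together (correlations -0.0565 to 0.0376 between P5 and P10), so the main fit has no block. Genes named are the 12 largest rises and falls (separate stages, brighter stage above the median of all genes), up to 4 called members per list with the smallest adjusted p, up to 2 against the list's direction, and a short set of markers; others are said to have been named afterwards or did not pass. The members and lists were chosen with earlier results of these data known. Alternatives were another scaling, a filter or floor on low signals, postnatal arrays only, other variance and probe set rules, a replicate block, a Y-linked term, and leaving out arrays. Genes sharing sequence (Cyp2c, Cyp4a, Ugt2 and Serpina families) may share probe signal.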

Additional observations from a re-analysis of the deposited data

How the results depend on the processing

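Against 550 genes higher and 576 lower, centring on the median of all genes gave 854 higher, and the 6 postnatal arrays alone gave 337 and 372; without P5 arrays 2 and 3 together, 336 were lower. The last 2 fits also used fewer arrays, and the cause of these changes was not tested. Leaving out 1 array gave 250 to 802 higher and 336 to 583 lower. With a replicate block, although the numbers do not pair the arrays, 409 were higher and 484 lower. Of 148 called genes among those named by the rule, 106 kept the call without each postnatal array, 42 lost it without at least 1, and none reversed in any fit; 119 kept it on the 6 postnatal arrays, 127 with the block, 129 with a Y-linked term and 96 without P5 arrays 2 and 3. The E15.5 arrays left out were added after seeing the data. List medians changed sign under another scaling only for erythroid, macrophage, chemokine, ribosomal protein and transcription factor lists, all within 0.079 of 0.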

Other observations

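No gene passed among 46 ribosomal protein, 17 granulocyte and megakaryocyte, 19 lymphocyte or 13 neural and Schwann cell genes. Their medians were -0.017, 0.0129, 0.0154 and -0.0843. At an unadjusted p under 0.05 in limma there were 0 ribosomal protein and 0 granulocyte and megakaryocyte genes. There were 0 higher and 1 lower lymphocyte genes, and 1 higher and 1 lower neural and Schwann cell genes. Of all genes 18.1% reached that p in either direction. Without P5 arrays 2 and 3, 1 lymphocyte gene fell and no gene of the other 3 lists passed. Of 19 erythroid genes the only call, 5.26% of them against 5.65% of all genes, was Alas2, the first enzyme of haem synthesis in red cell precursors. Alas2 read 7.78, 7.59 and 7.59 at P5 and 8.71, 8.38 and 8.58 at P10 (limma adjusted p = 0.00166). Its difference was 0.90, and 0.78 without P5 arrays 2 and 3. Of 25 macrophage genes Fcer1g alone was called, 4.0% of them against 5.65% of all genes. Fcer1g fell by 0.32 (limma adjusted p = 0.0265), and by 0.29 without P5 arrays 2 and 3. Its signal was near the low end of the range, and the call was lost whichever of the 6 postnatal arrays was left out.

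Of 41 respiratory chain genes 3 rose and none fell (median 0.188), or 7.32%, against 5.65% of all genes called in either direction. At an unadjusted p under 0.05 in limma there were 22, all higher, against 18.1% of all genes in either direction. Ndufs1, of complex I, read 9.64, 9.19 and 9.90 at P5 and 10.34, 10.31 and 10.47 at P10 (adjusted p = 0.0275), but the call was lost without P5 array 1 or any single P10 array. The count was 1 without P5 array 1 or 2, 0 whichever P10 array was left out, and 2 without P5 arrays 2 and 3. Among genes of glycolysis, gluconeogenesis and hypoxia 4 of 44 rose and 1 fell, or 11.4%, against 5.65% of all genes called in either direction. Ankrd37, a target of hypoxia-inducible factor, read 7.17, 6.84 and 6.56 at P5 and 8.76, 8.60 and 8.15 at P10 (adjusted p = 0.00382). Khk, the fructokinase, rose by 0.82 (adjusted p = 0.00749). Ndrg1, a gene also known to respond to hypoxia, fell by 1.27 (adjusted p = 0.0338), and of the fits without 1 postnatal array passed only in that without P10 array 2. The number that fell was 2 without P10 array 1 and 0 without P5 array 1, 2 or 3 or P10 array 3, and without P5 arrays 2 and 3, 3 rose and 0 fell.

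The list of liver transcription factors and nuclear receptors also holds Afp, which encodes a secreted protein. Of its 52 genes 5 rose and 7 fell (median 0.0147). Among those that fell were Afp and the mesenchymal and mesothelial factors Foxf1 and Wt1, all given above. Rxra, the shared partner of many nuclear receptors, read 10.03, 10.09 and 10.19 at P5 and 10.60, 10.53 and 10.41 at P10 (adjusted p = 0.0248), a call lost without P5 array 1, P5 array 2, P10 array 1 or P10 array 2. Tbx20, a T-box factor of mesenchyme, fell by 0.65 (adjusted p = 0.00851). The number that rose was 2 without P5 array 1 or 2, 1 without P10 array 1 or 2 and 3 without P10 array 3, and without P5 arrays 2 and 3, 1 rose and 4 fell. Of 38 chemokine and cytokine genes only Il7 rose and only Ackr3 fell, or 5.26%, no more than the 5.65% of all genes called in either direction. The median was -0.038, and -0.0261 without P5 arrays 2 and 3. There were 0 higher without P5 array 1, 2 or 3 or P10 array 2 or 3, and 2 lower without P5 array 3.

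Probe sets without a listed gene were left out of the comparison. In a fit of all 35556 probe sets, 39 of the 12146 not listed rose and 89 fell, or 1.05%, against 3.67% of the 21789 with 1 symbol.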
